A study of Homo sapiens with 6 samples.

Results

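The exon bins of human chromosome 3 were examined in RNA-seq libraries of HEK293 cells, a line of human embryonic kidney origin. An exon bin is a stretch of exon between annotated exon boundaries, and every bin that the count tables place on chromosome 3 was taken, which gave 36136 of 597973 bins. Of these, 17136 lay on the short arm and 19000 on the long arm, the arms being divided at the centromere in GRCh38 coordinates. Chromosome 3, the split of its arms and the stretch around UBXN7 were picked because of their MUL1(-/-) to WT ratios in these same libraries, so the ratios given for them are a description and were not tested. The 3 WT libraries came from HEK293 WT cells and the 3 MUL1(-/-) libraries from HEK293 cells whose MUL1 gene had been inactivated by CRISPR-Cas9. The study's methods give the same serum-supplemented medium for both and name no treatment for the sequenced cells. They also describe HEK293 WT control clones that received an empty PX458 vector, without saying whether these were the WT cells sequenced. Whether the sequenced MUL1(-/-) cells were 1 clone or several is not given in the sources used here. The study's methods speak of independent experiments for quantitative data in general but do not say whether the 3 libraries of a genotype were separate cultures, so the spread between them may be technical.

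MUL1 is a ubiquitin ligase of the outer mitochondrial membrane, and UBXN7 is one of its substrates, an adaptor of the VCP/p97 segregase and of cullin-RING ligases that bears on the level of HIF-1α. HEK293 is known as a line with an uneven chromosome complement that varies between its derivatives. The distal long arm of chromosome 3 is known for being gained in squamous carcinomas, where SOX2, TP63 and PIK3CA lie, the terminal band 3q29 for a recurrent deletion in people, and the short arm for tumour suppressors such as VHL, BAP1 and PBRM1. DNA was not measured in these samples, so the number of copies of a region is not known from them.

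MUL1 itself lies on chromosome 1, and the position of its edit is not given in the sources used here, so its count is no check of the labels. Its values were 15.4, 15.2 and 19.0 CPM (counts relative to the library total, scaled by the TMM factors of edgeR) in the WT libraries and 18.7, 16.7 and 19.2 CPM in the MUL1(-/-) libraries, and the 2 groups overlapped. All 7 markers of HEK293 cells were at 1 CPM or more in every library, while all the leukocyte, endothelial and hepatocyte markers were below 1 CPM in every library. Of the HEK293 markers, VIM, KRT8, PAX2 and LHX1 were lower and NEFM higher in MUL1(-/-) without overlap, while KRT18 and NEFL overlapped. KRT8 had 328, 304 and 340 CPM in WT and 177, 177 and 156 CPM in MUL1(-/-). PAX2 had 10.7, 9.84 and 7.83 CPM in WT and 2.89, 3.35 and 1.93 CPM in MUL1(-/-). The 3 fibroblast markers COL1A1, COL1A2 and DCN passed 1 CPM in every library. They summed to 22.5 to 30.2 CPM in WT and 19.3 to 24.8 CPM in MUL1(-/-), most of it from COL1A1. COL1A1 was lower in every MUL1(-/-) library, and COL1A2 overlapped. DCN went the other way, with 1.20, 1.22 and 1.14 CPM in WT and 2.72, 2.61 and 3.42 CPM in MUL1(-/-). The part of these markers in the results was not tested.

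Coding exon bins from both sides of the lower edge of the stretch and from UBXN7 and its neighbour TFRC are shown to make plain what a single count refers to. For each gene this is the most counted bin of 60 to 150 bases that overlapped no other gene's exon and was coding over its whole length in every transcript that contains it and has an annotated coding sequence. The bases were read from GENCODE 29 transcripts (GRCh38), in the direction of the gene.
GMPS, chr3:155934916-155935046, plus strand, 131 bases: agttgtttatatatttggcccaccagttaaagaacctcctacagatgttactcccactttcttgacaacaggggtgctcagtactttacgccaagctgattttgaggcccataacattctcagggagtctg
SSR3, chr3:156544308-156544439, minus strand, 132 bases: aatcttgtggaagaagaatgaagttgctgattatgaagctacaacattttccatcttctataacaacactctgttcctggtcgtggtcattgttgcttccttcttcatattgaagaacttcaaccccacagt
TFRC, chr3:196055111-196055214, minus strand, 104 bases: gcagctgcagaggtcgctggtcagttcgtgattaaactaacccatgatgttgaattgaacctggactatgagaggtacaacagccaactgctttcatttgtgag
UBXN7, chr3:196402952-196403019, minus strand, 68 bases: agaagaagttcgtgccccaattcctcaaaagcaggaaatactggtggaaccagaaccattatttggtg
The GMPS bin, outside the stretch, held 1191, 1222 and 1014 counts in WT and 1134, 1077 and 983 in MUL1(-/-), and its ranges overlapped. Inside the stretch, the SSR3 bin held 915, 1049 and 893 counts in WT and 1305, 1304 and 1188 in MUL1(-/-). Every MUL1(-/-) count of the SSR3 bin was above every WT count. The TFRC bin held 420, 426 and 575 counts in WT against 785, 752 and 1024 in MUL1(-/-), again without overlap. The UBXN7 bin held 221, 294 and 218 counts in WT and 343, 329 and 252 in MUL1(-/-), where the lowest MUL1(-/-) count fell under the highest WT count. Scaled for library size, the log2 ratios of MUL1(-/-) to WT were -0.02 ± 0.08 (SE) for the GMPS bin, 0.49 ± 0.08 for SSR3, 0.92 ± 0.13 for TFRC and 0.42 ± 0.12 for UBXN7, each from 3 libraries per genotype.

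Chromosome 3 took a larger share of all bin counts in MUL1(-/-) than in WT, and the long arm accounted for it. The long arm held 1.83, 1.85 and 1.90% of the counts in the WT libraries and 2.23, 2.30 and 2.30% in the MUL1(-/-) libraries, so that the genotypes did not overlap. The short arm held 2.25, 2.25 and 2.24% in WT and 2.22, 2.21 and 2.22% in MUL1(-/-), slightly lower in every MUL1(-/-) library. Bin counts summed to 132849479 to 149317215 per WT library and 127466071 to 128125459 per MUL1(-/-) library.

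Along the chromosome, 1 long run of genes on the distal long arm was higher in MUL1(-/-), while the short arm and the proximal long arm had medians close to that of the other autosomes. Counts were summed over the bins of each gene, log2 fold changes (MUL1(-/-) over WT) were taken from edgeR, and region values are medians over genes that averaged at least 1 CPM across the 6 libraries, less the median of the other 21 autosomes. The run was placed as the unbroken series of at least 10 long arm genes that holds UBXN7 and leaves the least absolute deviation from 1 median inside and 1 outside, so no level of ratio was set. It reached from KCNAB1 at 156037701 to ANKRD18DP, which ends at 198080720, a stretch of 42.0 Mb that held 184 genes at or above 1 CPM and 8164 exon bins. The median of the stretch was 0.47 on the log2 scale, a 1.39-fold ratio, with quartiles of 0.31 and 0.67. The 415 short arm genes had a median of 0.019 (quartiles -0.15 and 0.16) and the 256 long arm genes outside the stretch one of 0.018 (quartiles -0.15 and 0.19). For comparison, the 14469 genes of the other autosomes had quartiles of -0.24 and 0.23. The long arm as a whole, with 440 genes, had a median of 0.19, so its value came from the stretch. In the stretch, 170 of 184 genes (92.4%) lay above the median of the other autosomes, against 225 of 415 (54.2%) on the short arm and 133 of 256 (52.0%) on the rest of the long arm.

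**Figure D1:**
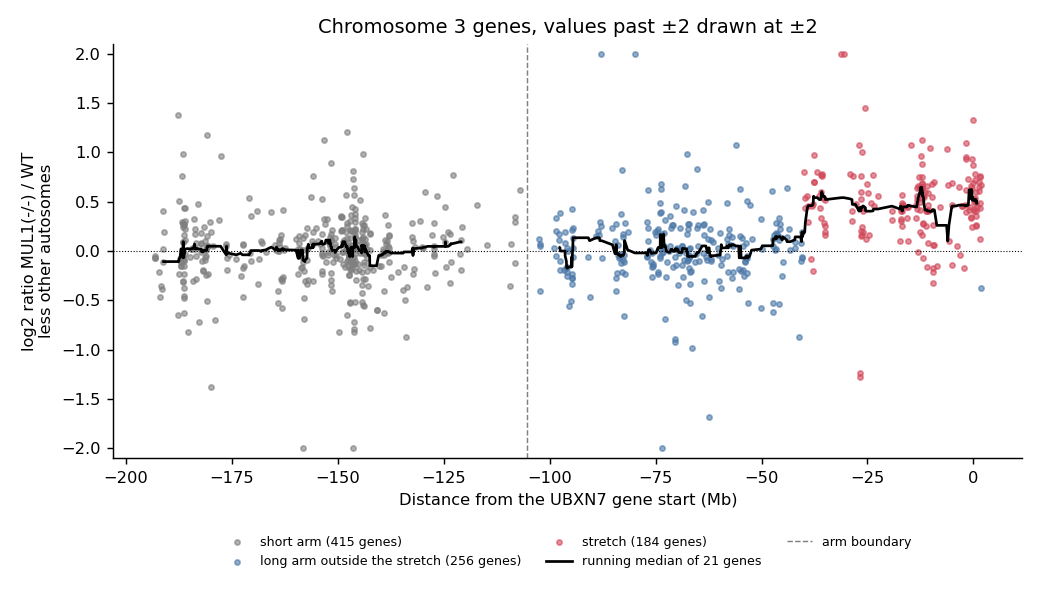
Log2 ratio of MUL1(-/-) to WT, less the median of the other autosomes, for the 855 chromosome 3 genes averaging at least 1 CPM, against the distance in Mb from the start of UBXN7; points are genes, the black line is the median over 21 neighbouring genes in each arm, and the dashed line is the arm boundary. The line stays near 0 over the short arm and the proximal long arm and lies near the stretch median of 0.47 over the last 42.0 Mb, with a dip a few Mb before UBXN7.

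The lower edge was placed on these same ratios, so the genes on either side of it are given as a description. With each gene represented by its most counted bin, the edge moved to SLC33A1 at 155821024, which puts GMPS and SETP14 inside. Where the run was instead followed from UBXN7 for as long as a median over 21 genes stayed raised, it began only at IL1RAP (190514051) and held 53 genes in place of 184. GMPS, which makes GMP in purine synthesis, was the second gene before the edge, with 149, 139 and 132 CPM in WT and 129, 140 and 127 CPM in MUL1(-/-), and its ranges overlapped. SETP14, a processed pseudogene and the last gene outside, ended at 155988176 and had a log2 fold change of -0.07 ± 0.16 (SE). KCNAB1, a potassium channel beta subunit and the first gene inside, began 49.5 kb further on and had 0.858, 1.00 and 1.08 CPM in WT against 1.79, 1.77 and 1.53 CPM in MUL1(-/-), with no overlap and a log2 fold change of 0.79 ± 0.16. Its WT mean of 0.98 CPM was under the limit of 1 CPM, which it passed only through MUL1(-/-), and genes averaging at least 5 CPM place the edge at SSR3. The next gene, SSR3, a subunit of the translocon-associated protein complex, had 84.4, 83.3 and 85.1 CPM in WT and 116, 131 and 117 CPM in MUL1(-/-), a log2 fold change of 0.52 ± 0.07. Over the 10 genes before the edge the median was 0.018 and 0 of them passed 0.3, whereas over the 10 after it the median was 0.46 and 7 passed 0.3.

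The upper edge lay close to the end of the chromosome, where few genes were left to place it. LMLN, a leishmanolysin-like metallopeptidase, had a log2 fold change of 0.42 ± 0.09 (SE), and the pseudogene ANKRD18DP, the last gene inside, one of 0.66 ± 0.16. Beyond it only 1 gene at or above 1 CPM remained, the pseudogene FAM157A, with 2.46, 2.17 and 2.31 CPM in WT and 1.61, 1.77 and 1.92 CPM in MUL1(-/-). Its log2 fold change was -0.39 ± 0.13, but it was 0.10 when each gene was represented by its most counted bin, so this edge rests on a single gene whose direction depends on the counting.

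In each MUL1(-/-) library the stretch stood apart from the rest of the chromosome. Values are relative to the WT mean, so WT libraries lie near 0 in every region and cannot show such a difference. With each gene expressed as log2(CPM + 0.1) relative to its WT mean, and the median of the other autosomes taken off, the stretch medians were -0.014, 0.0058 and 0.020 in the WT libraries and 0.45, 0.51 and 0.47 in the MUL1(-/-) libraries. The means were 0.0037 ± 0.017 (SD, n = 3) in WT and 0.48 ± 0.031 (SD, n = 3) in MUL1(-/-), and the libraries of the genotypes lay far apart. On the short arm the MUL1(-/-) medians were 0.0095, 0.0014 and 0.026, and on the rest of the long arm -0.0091, 0.043 and 0.022. Over the 9 pairs of a MUL1(-/-) and a WT library, the stretch differed by 0.45 to 0.53 and the short arm by -0.012 to 0.037. Over the 6 pairs within a genotype the stretch differed by 0.022 to 0.061. The stretch was placed on the ratio between these genotypes, so this gap is a description. Pairs within a genotype differed by 0.0040 to 0.023 on the short arm.

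**Figure D2:**
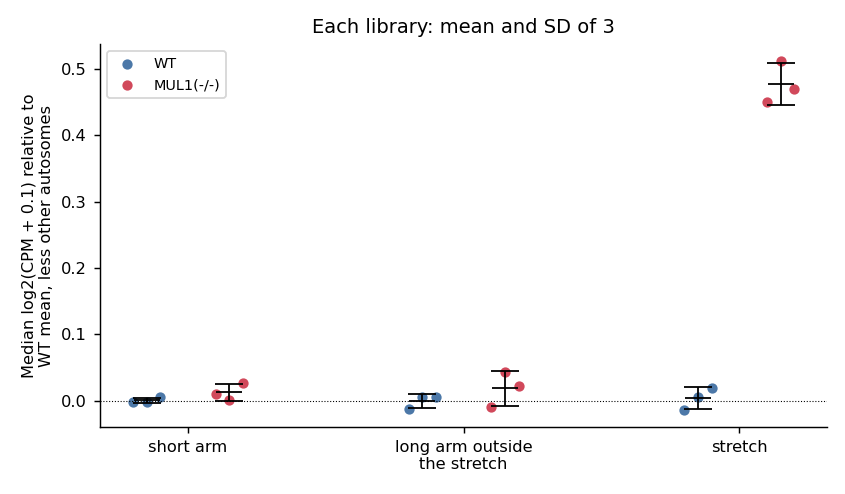
Median over genes of log2(CPM + 0.1) relative to the WT mean, less the median of the other autosomes, for each library (points) in 3 regions of chromosome 3; horizontal marks are the means and bars the SD of 3 libraries. In the stretch the MUL1(-/-) libraries sit between 0.45 and 0.51 and the WT libraries between -0.014 and 0.020, while in the other regions both genotypes stay within about 0.05 of 0.

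The exon bins themselves gave the same picture with no summing over genes. Of the 36136 bins, 4190 had a count of 0 in every library, 19261 (53.3%) were high enough to be tested and 8055 had a mean of at least 1 CPM. The others are counted among the members but carry no ratio. Over the bins with a mean of at least 1 CPM, of which the stretch held 1918, the median ratio, less that of the bins of the other autosomes, was -0.0035 on the short arm, 0.025 on the long arm outside the stretch and 0.53 in the stretch, where the quartiles were 0.37 and 0.67 and 96.2% of these bins lay above the other autosomes' median. Short bins, long bins and both strands differed little: bins under 50 bases, of 50 to 150 bases and over 150 bases in the stretch had medians of 0.53 each, and bins of the plus and minus strands 0.53 and 0.54. A bin was called when its edgeR quasi-likelihood test had a Benjamini-Hochberg adjusted p under 0.05 over all 330941 bins tested. By that rule 2505 of 4233 tested stretch bins were called higher and 40 lower in MUL1(-/-), where 15.4% of all tested bins were called higher and 14.8% lower. Of 9713 short arm bins 937 were called higher and 915 lower, and on the rest of the long arm 567 and 432 of 5315. Bins of a gene are not independent, and they share reads if, as appears, a read is counted in each bin it touches.

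At the level of genes, 180 of 303 tested stretch genes (59.4%) were called higher by the same rule and 3 lower, beside 18.8% higher and 18.7% lower among all 25125 tested genes. The count of 3 lower became 6 without WT library 3. The stretch was chosen on this ratio and nothing is read from the excess of higher calls. On the short arm, 92 of 644 tested genes were called higher and 88 lower, and on the rest of the long arm 61 of 399 were called higher and 45 lower. The short arm counts depended on single libraries, with 58 higher and 53 lower without WT library 1, 57 higher without WT library 2 and 57 lower without MUL1(-/-) library 1. With a log2 fold change above 1 required as well, the rule stated in the study's methods, the counts of higher and lower genes were 36 and 3 in the stretch, 19 and 11 on the short arm and 16 and 6 on the rest of the long arm, beside 4.23% and 3.87% of all tested genes. Most stretch genes therefore differed by less than that rule requires. All 3 MUL1(-/-) values lay above all 3 WT values in 202 of the 303 stretch genes and below them in 5, where 24.1% of all tested genes lay wholly above and 24.4% wholly below. The same counts were 126 and 122 of 644 on the short arm and 84 and 74 of 399 on the rest of the long arm.

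Kinds of transcript differed little within the stretch. Its 147 protein-coding genes had a median of 0.48, its 25 long non-coding genes 0.46 and its 11 pseudogenes 0.47. Genes of low, middle and high level, divided at 8.86 and 39.5 CPM, had medians of 0.46, 0.50 and 0.48, and genes of the plus and minus strands 0.47 and 0.50. The same level classes on the short arm lay between -0.041 and 0.053.

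In windows of 20 consecutive genes, the 9 windows of the stretch, the last of which also takes in FAM157A, had medians from 0.41 to 0.63. The 20 short arm windows ran from -0.11 to 0.13 and the 12 windows of the long arm before the edge from -0.07 to 0.14, so neither set of windows met those of the stretch at this size. With windows of 10 genes they did meet, the lowest in the stretch being 0.23 and the highest before the edge 0.28. The window across the edge, with the genes SIAH2-AS1 to VEPH1, had a median of 0.12. The highest window ran from KLHL24 to CHRD (183635568 to 184390736) and the lowest from EPHB3 to LINC02043 (184561784 to 186825521), next to each other on the map. Such medians were not particular to chromosome 3. Of the 714 windows on the other autosomes, which ranged from -1.05 to 0.72, 62 (8.68%) were at or above the lowest stretch window, they fell on 7 chromosomes, and the longest unbroken series was 16 windows on chromosome 17.

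Taken as whole chromosomes, chromosome 3 was sixth from the highest of the 22 autosomes, with a median of 0.068 over 855 genes. Chromosome 19 was highest at 0.33, followed by chromosome 13 at 0.25 and chromosome 17 at 0.23, and chromosome 20 was lowest at -0.35. The stretch alone, at 0.47, lay above the median of every whole autosome, and both remaining regions of chromosome 3 lay within 0.02 of 0. The stretch is a part chosen for its ratio, so it is not like a whole chromosome, and windows on other autosomes reached 0.72.

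UBXN7 (ENSG00000163960, chr3:196347662-196432474, minus strand) was higher in MUL1(-/-). Its estimate was below those of the 5 genes at or above 1 CPM on each side, but this order is uncertain. FBXO45, for instance, had 0.42 ± 0.08 (SE), and UBXN7 ran from 0.33 to 0.47 with 1 library left out at a time. UBXN7 had 71.5, 74.4 and 63.5 CPM in the WT libraries and 93.9, 98.8 and 83.1 CPM in the MUL1(-/-) libraries. All the MUL1(-/-) values were above all the WT values, and the log2 fold change was 0.40 ± 0.08 (SE), a little under the stretch median of 0.46 on the same scale. Of its 21 exon bins 19 were tested, all 19 had a ratio above 0, and 16 were called higher and 0 lower. Their log2 ratios ran from 0.11 to 0.77 with a median of 0.49. The longest and most counted bin, the 7215 bases at the 3' end, had 0.29 ± 0.08 (SE), under all the other bins except the 2 at the 5' end, which held 11 to 22 counts per library and had standard errors of 0.32 and 0.33. The highest ratio was in a bin of 80 bases (196361844 to 196361923), with 148, 170 and 150 counts in WT and 275, 278 and 202 in MUL1(-/-).

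**Figure D3:**
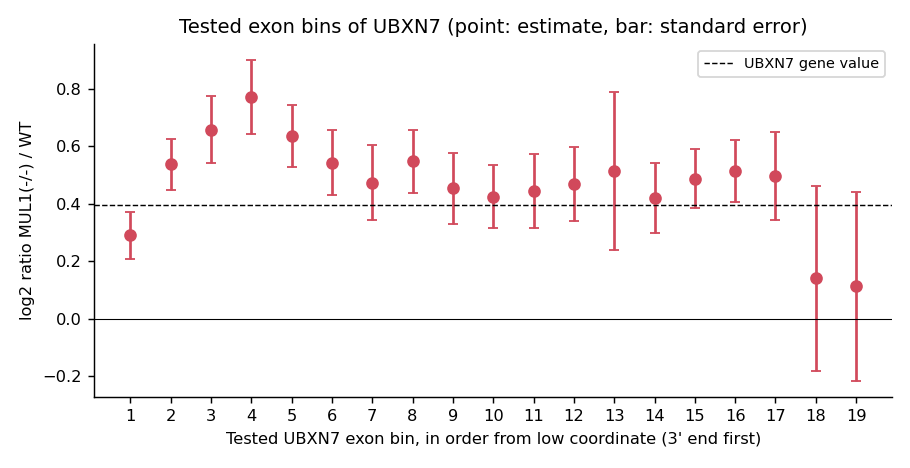
Log2 ratio of MUL1(-/-) to WT for the 19 tested exon bins of UBXN7, in order from its 3' end; points are edgeR estimates from 3 libraries per genotype, bars their standard errors, and the dashed line the value of the whole gene, 0.40. Every point is above 0, from 0.11 to 0.77, and the first bin, the most counted, lies at 0.29.

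Of the genes at or above 1 CPM, the 5 on each side of UBXN7 were higher in all 3 MUL1(-/-) libraries, with log2 fold changes from 0.42 to 1.32. Of the tested genes below that level in the same span, those called were NRROS and ZDHHC19. NRROS, between FBXO45 and CEP19, was called lower at -1.47 ± 0.36 (SE), but it passed the filter on low counts through WT, where it was higher. ZDHHC19, between TFRC and SLC51A, was called higher at 0.78 ± 0.24. TFRC, the transferrin receptor that brings iron into cells and a known target of HIF, had 111, 105 and 140 CPM in WT and 205, 194 and 273 CPM in MUL1(-/-), a log2 fold change of 0.92 ± 0.12 (SE). Its genotypes did not overlap, and the third library of each was the highest of its group. PCYT1A, the rate-limiting enzyme of phosphatidylcholine synthesis, had 34.4, 34.9 and 35.9 CPM in WT and 65.7, 60.1 and 64.9 CPM in MUL1(-/-), a log2 fold change of 0.86 ± 0.07. PCYT1A overlaps SLC51A, a subunit of a bile acid and steroid transporter with a log2 fold change of 1.32 ± 0.12, and 41.2% and 57.6% of their respective counts lie in bins overlapped by another gene's exon, so their division is uncertain. On the other side, RNF168, a ubiquitin ligase of the DNA damage response, had 15.9, 16.1 and 16.3 CPM in WT and 23.1, 22.6 and 21.8 CPM in MUL1(-/-), a log2 fold change of 0.48 ± 0.08. WDR53 and FBXO45, the latter the substrate receptor of a ubiquitin ligase, had 0.50 ± 0.10 and 0.42 ± 0.08, and CEP19, a centrosomal and ciliary protein, 0.77 ± 0.12. The dynein light chain gene DYNLT2B had 0.68 ± 0.12 and the pseudogene SDHAP1 0.62 ± 0.09. UBXN7-AS1, the antisense transcript at the UBXN7 start, had 0.51 ± 0.13, but 96.9% of its counts lay in bins overlapped by another gene, and the counts do not separate strands, so it cannot be told apart from UBXN7.

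**Figure D4:**
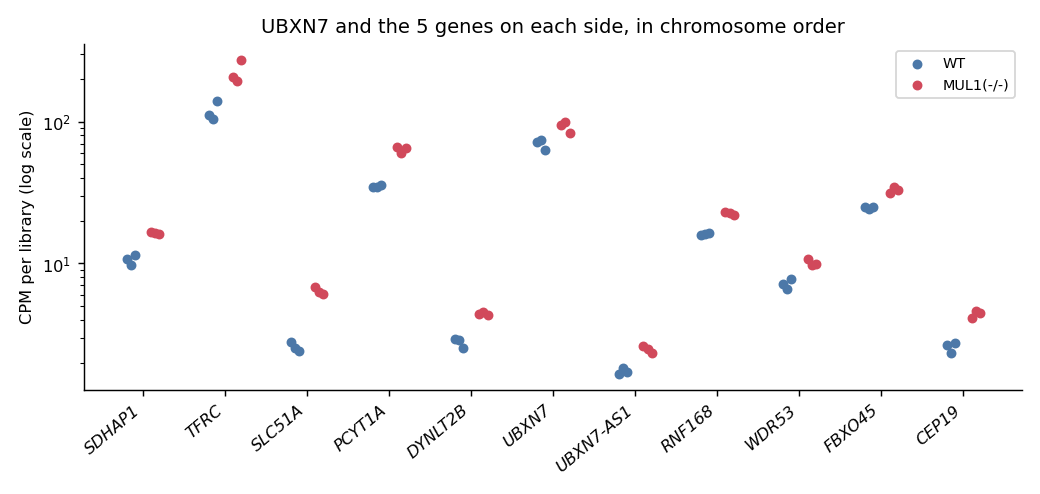
CPM of UBXN7 and the 5 genes at or above 1 CPM on each side in each of 3 WT and 3 MUL1(-/-) libraries (points), in chromosome order, on a log scale; CPM is not per length, so only the 2 genotypes of a gene are to be compared, and tested genes below 1 CPM in the span, NRROS and ZDHHC19 among them, are not drawn. For each of the 11 genes drawn the 3 MUL1(-/-) points lie above the 3 WT points, as for UBXN7 with 83.1 to 98.8 against 63.5 to 74.4 CPM.

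The starts of UBXN7 and TFRC are shown because these neighbours, higher together, differ in a motif of the factor that UBXN7 bears on. The bases from 250 to 81 before each RefSeq start (GRCh38.p14) are given in the direction of the gene, with capitals for ACGTG or its complement CACGT, the core that HIF binds in hypoxia response elements, which can overlap one another and also occur in the E-box CACGTG.
UBXN7, chr3:196432508-196432677, minus strand: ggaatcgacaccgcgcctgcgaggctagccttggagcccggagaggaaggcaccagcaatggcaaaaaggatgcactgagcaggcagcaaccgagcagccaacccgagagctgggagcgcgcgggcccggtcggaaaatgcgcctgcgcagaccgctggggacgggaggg
TFRC, chr3:196082171-196082340, minus strand: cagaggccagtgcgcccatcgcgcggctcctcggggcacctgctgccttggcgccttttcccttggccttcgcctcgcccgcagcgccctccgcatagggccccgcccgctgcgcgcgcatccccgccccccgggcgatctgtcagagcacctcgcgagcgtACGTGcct
In the whole window, from 250 bases before to 50 after the start, TFRC held 1 match and UBXN7 held 0, and UBXN7 had 33 CpG dinucleotides and TFRC 37. The TFRC gene as counted begins at 196082189, before the RefSeq start, so the last printed bases and the capitals lie inside it. Among stretch genes at or above 1 CPM, 141 of 184 had a RefSeq promoter by symbol and 33 of these (23.4%) held the motif. The share was 27.2% of 335 short arm promoters, 31.9% of 213 on the rest of the long arm, 26.3% of 10239 on the other autosomes and 21.4% of all 35116 promoters in the table. Median GC content was 64.3% in the stretch, 65.7% on the short arm and 63.3% on the rest of the long arm. A match is only a run of letters and says nothing of binding.

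The genes known from carcinomas with a gained distal long arm that were tested all lay inside the stretch, which was chosen for its higher ratios. Of 44 tested, 37 were called higher, 0 lower and 7 neither, beside 18.8% higher and 18.7% lower among all tested genes and 59.4% higher among all tested stretch genes, with a median log2 fold change of 0.49, where the median over all tested genes was -0.01. EIF4G1, the scaffold of translation initiation, had 1036, 963 and 1031 CPM in WT and 1596, 1491 and 1614 CPM in MUL1(-/-), a log2 fold change of 0.63 ± 0.06 (SE). PSMD2, a proteasome subunit, was close to it with 0.64 ± 0.06, and SOX2, a stem cell transcription factor, had 8.27 to 9.54 CPM in WT and 17.1 to 19.9 CPM in MUL1(-/-). The genotypes did not overlap in these 3 genes. PIK3CA, the catalytic subunit of PI3 kinase, had a log2 fold change of 0.39 ± 0.08, MECOM, a transcription factor, one of 1.06 ± 0.10, and DVL3, a Wnt pathway protein, one of 0.73 ± 0.07. EIF4A2, an RNA helicase of translation initiation, and FXR1, an RNA-binding protein, were called neither way, at -0.23 ± 0.09 and 0.09 ± 0.08. EIF4A2 had 657, 644 and 540 CPM in WT and 528, 583 and 461 CPM in MUL1(-/-), and its ranges overlapped. TP63 and TERC were called higher but were low in both genotypes. TP63 had 0.014 to 0.048 CPM in WT and 0.096 to 0.12 CPM in MUL1(-/-), and TERC had 0.016 to 0.047 and 0.088 to 0.11 CPM. Both passed the filter on low counts through MUL1(-/-), where they were higher, and both count among the 37.

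Genes of the recurrent 3q29 deletion interval also lay within the stretch by position. Among 19 tested genes, 17 were called higher, 1 lower and 1 neither, with a median of 0.50, again beside 59.4% higher among all tested stretch genes and 18.8% and 18.7% called higher and lower among all tested genes. DLG1, a synaptic scaffold protein, had 70.5, 72.1 and 70.8 CPM in WT and 91.4, 98.1 and 97.7 CPM in MUL1(-/-), without overlap. PAK2, a kinase, had a log2 fold change of 0.71, and NCBP2, a nuclear cap-binding subunit, one of 0.25 ± 0.07 (SE). NRROS, a regulator of reactive oxygen species, was the one called lower, at 0.16 to 0.21 CPM in WT and 0.056 to 0.079 CPM in MUL1(-/-). It passed the filter on low counts through WT, where it was higher. BDH1, the mitochondrial 3-hydroxybutyrate dehydrogenase, was called neither way and was below 0.3 CPM in every library.

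The genes listed as short arm tumour suppressors, CTNNB1 and BRK1 counted among them, were higher in some members and lower in others. Of 25 tested, 9 were called higher, 4 lower and 12 neither, with a median log2 fold change of 0.04, where 14.3% and 13.7% of all tested short arm genes and 18.8% and 18.7% of all tested genes were called higher and lower, the short arm shares being those of all 6 libraries. VHL, the substrate receptor that marks HIF-1α for degradation, had 88.9, 87.2 and 86.7 CPM in WT and 65.3, 70.3 and 64.7 CPM in MUL1(-/-), lower in every library, with a log2 fold change of -0.39 ± 0.07 (SE). FANCD2, of the Fanconi anaemia repair pathway, was also lower at -0.47 ± 0.09, and so was SEMA3F, a secreted guidance protein, at -0.80 ± 0.10. CTNNB1, beta-catenin, which is better known as an oncogene, was higher with 285, 271 and 316 CPM in WT and 337, 326 and 352 CPM in MUL1(-/-), a log2 fold change of 0.22 ± 0.07. The chromatin genes PBRM1 and SETD2 had 0.25 and 0.33 and were called higher, whereas the deubiquitinase BAP1 had 0.04 ± 0.07 and BRK1, a subunit of an actin regulatory complex, -0.10 ± 0.07, with overlapping genotypes.

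Genes of the ubiquitin and SUMO pathway, the system in which MUL1 acts, lay in all 3 regions. The calls of this list and of the 3 that follow stand beside 18.8% higher and 18.7% lower among all tested genes. By region, 59.4% of tested stretch genes were called higher and 0.990% lower, 14.3% and 13.7% of those on the short arm, and 15.3% and 11.3% of those on the rest of the long arm. Differences between the lists and their regions were not tested. The lists were compiled broadly, and their counts are also given without members whose main known role lies elsewhere, which were picked out after their values were seen. In the stretch 9 of 10 tested were called higher and 0 lower, with a median of 0.48, against 5 higher and 4 lower of 19 on the short arm (median 0.00) and 3 higher and 2 lower of 9 on the rest of the long arm (median 0.16). Without UBP1, a transcription factor, and TOPBP1, a DNA replication and checkpoint protein, 4 were higher and 4 lower of 18 on the short arm and 3 and 2 of 8 on the rest of the long arm. The SUMO proteases SENP2 and SENP5 had log2 fold changes of 0.58 ± 0.07 (SE) and 0.47 ± 0.07, and USP13, a deubiquitinase, 0.46 ± 0.07. SENP2 had 63.3, 59.7 and 66.0 CPM in WT and 93.3, 95.6 and 92.9 CPM in MUL1(-/-), and the genotypes did not overlap. KLHL24, an adaptor of a cullin ligase, was the stretch member called neither way, at 0.18. Outside the stretch, HLTF, a ubiquitin ligase and helicase of replication fork repair, was lower, with 147, 147 and 144 CPM in WT and 84.7, 108 and 90.3 CPM in MUL1(-/-) and a log2 fold change of -0.63 ± 0.08. PARP9 and its partner ligase DTX3L, which lie side by side, were higher, at 0.67 ± 0.10 and 0.62 ± 0.11. UBE2E1, a conjugating enzyme, and ARIH2, a ligase, were near 0 with 0.05 ± 0.07 and 0.00 ± 0.07.

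For mitochondrial proteins, 8 of 9 tested stretch genes were called higher and 0 lower, with a median of 0.43. On the short arm 1 was called higher and 5 lower of 24 (median -0.01), and on the rest of the long arm 2 higher and 2 lower of 15 (median -0.03). Without 7 members such as the splicing factor ISY1, the nuclear elongation cofactor EAF2 and QARS1, an enzyme found mainly in the cytosol, the short arm had 1 higher and 2 lower of 20 and the rest of the long arm 2 and 1 of 12, while the stretch counts stayed at 8 and 0 of 9. OPA1 and MFN1, which fuse the inner and outer mitochondrial membranes, had log2 fold changes of 0.44 ± 0.08 (SE) and 0.41 ± 0.08. OPA1 had 141, 138 and 121 CPM in WT and 164, 191 and 190 CPM in MUL1(-/-), higher in every MUL1(-/-) library. GFM1, a mitochondrial elongation factor, had 0.68 ± 0.07. On the short arm QARS1, the glutaminyl-tRNA synthetase, had 652, 598 and 533 CPM in WT and 410, 399 and 426 CPM in MUL1(-/-), a log2 fold change of -0.53 ± 0.07 with no overlap, and SUCLG2, of the citric acid cycle, had -0.38 ± 0.12 with overlapping values. UQCRC1, of respiratory complex III, and the antioxidant enzyme GPX1 had 0.12 ± 0.07 and 0.05 ± 0.07 and were called neither way.

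Central carbon and lipid metabolism gave 4 of 6 stretch genes higher and 0 lower (median 0.39), 3 higher and 5 lower of 12 on the short arm (median -0.02) and 4 higher and 0 lower of 14 on the rest of the long arm (median 0.12). Without 6 members such as the angiotensin receptor gene AGTR1, the adenylyl cyclase gene ADCY5 and the calcium pump gene ATP2C1, these were 3 and 0 of 5, 3 and 5 of 11 and 3 and 0 of 10. The short arm enzymes TKT, of the pentose phosphate pathway, and IMPDH2, of guanine nucleotide synthesis, were lower at -0.21 ± 0.08 (SE) and -0.26 ± 0.07, and PFKFB4, which sets the level of a glycolytic activator, at -0.66 ± 0.12. TKT had 504, 456 and 399 CPM in WT and 397, 395 and 381 CPM in MUL1(-/-), the nearest values of the genotypes almost touching. PPARG, a lipid-sensing nuclear receptor, was higher at 0.32 ± 0.09. PDHB, of pyruvate dehydrogenase, and ATP2C1 were near 0, at 0.01 ± 0.07 and -0.05 ± 0.07. On the HIF axis 4 of 11 tested genes were called higher, among them TFRC, UBXN7 and PIK3CA of the stretch and SEC61A1, a translocon subunit of the proximal long arm, at 0.40 ± 0.08, and the 2 called lower, VHL and PFKFB4, were on the short arm. Without 4 members less directly tied to HIF, SEC61A1, EIF4A2, WDR82 and HES1, 3 of 7 were higher and 2 lower.

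Single genes went far beyond the level of their region. The highest log2 fold changes on the long arm were those of LSAMP, a neuronal adhesion protein, at 6.19 ± 0.20 (SE), SLITRK3, a synaptic adhesion protein, at 4.41 ± 0.17, BCHE, butyrylcholinesterase, at 3.28 ± 0.12, and MYH15, a myosin heavy chain, at 2.48 ± 0.22. BCHE had 9.02, 8.73 and 11.3 CPM in WT and 81.9, 95.1 and 105 CPM in MUL1(-/-), and SLITRK3 had 3.04, 2.88 and 3.68 CPM in WT and 59.2, 56.3 and 88.9 CPM in MUL1(-/-). LSAMP had 0.047, 0.057 and 0.056 CPM in WT, which is 6, 8 and 7 counts, and 3.91, 4.21 and 3.72 CPM in MUL1(-/-), and MYH15 had 0.307, 0.474 and 0.667 CPM in WT and 2.87, 2.90 and 2.28 CPM in MUL1(-/-). Both passed the limit of 1 CPM only through MUL1(-/-), so their place among the highest was helped by the filter. BCHE and SLITRK3 lie in the stretch and LSAMP and MYH15 outside it, and the genotypes of all 4 did not overlap, which the choice of genes required. The lowest were SEMA5B, a semaphorin, at -2.14 ± 0.19 and SLCO2A1, a prostaglandin transporter, at -1.69 ± 0.21, both outside the stretch, and SLCO2A1 passed the limit of 1 CPM only through WT.

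On the short arm the lowest was MYD88, the adaptor of Toll-like receptors, with 2.56, 2.42 and 3.21 CPM in WT and 0.127, 0.056 and 0.315 CPM in MUL1(-/-), a log2 fold change of -4.04 ± 0.33 (SE). MYD88 and MST1R passed the limit of 1 CPM only through WT. MST1R, a receptor tyrosine kinase, had -2.91 ± 0.19, RFTN1, a lipid raft protein, -1.40 ± 0.10, and the uncharacterised gene C3orf14 -0.89 ± 0.10. The highest on that arm were SSUH2 at 1.37 ± 0.15, the anchoring fibril collagen gene COL7A1 at 1.19 ± 0.14, COLQ, the collagen tail of acetylcholinesterase, at 1.16 ± 0.14 and GASK1A at 1.11 ± 0.11. These genes were picked as the highest and lowest whose genotypes did not overlap, so their separation is not a finding.

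Within the stretch, 14 of the 184 genes had a log2 fold change below 0. The 2 called lower were RPL22P1, a ribosomal protein pseudogene, at -1.25 ± 0.14 (SE) and ENSG00000281137 at -1.29 ± 0.14, which overlap each other, have all their counts in bins overlapped by another gene's exon and are uncertain, since reads of a near-identical RPL22 copy could be divided among them. The other 12 were called neither way and ran from -0.34 for LINC02043 to -0.02 for MCF2L2. They include the transcription factors HES1 (-0.18 ± 0.10), BCL6 (-0.16 ± 0.12) and SHOX2 (-0.09 ± 0.09) and the myeloid leukaemia factor MLF1 (-0.21 ± 0.09). MLF1 was among the 10 genes after the lower edge, and EIF4A2, its antisense neighbour ENSG00000263826 and LINC02043 all lay between 186781780 and 186825521.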

How the data were processed

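RNA of HEK293 cells was sequenced in 3 WT and 3 MUL1(-/-) libraries made with the SMARTER mRNA-Seq kit. For each library the authors deposited 1 table of counts over exon bins, with no normalization. The submitters' processing notes name Trimmomatic 0.36, STAR 2.5.2b and GRCh38, and the counting program is not given in the sources used here. A read appears to be counted in each bin it touches, since 1760 bins of at most 12 bases had over 1000 counts. Sums would then exceed the number of reads. The 19 bins with the same coordinates on both strands had a median count ratio of 1, so counting did not separate strands.

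Bin counts were added up per gene. The plan had assumed counts per gene. On chromosome 3, 5716 bins stood under 116 joined identifiers, which were divided among their genes with GENCODE 29 (exons of the same strand only), and 1042 bins in exons of several genes were given to none. Genes of the whole table (57123, of which 25125 passed filterByExpr) were fitted with edgeR 4.0.16 in R 4.3.3 (TMM factors 0.946 to 1.03, genotype only, quasi-likelihood test, Benjamini-Hochberg adjustment), bins likewise, and DESeq2 1.42.0 was an alternative. Counts of 3 or fewer were taken as the floor, for counting error only. Figures were made with Python 3.11.15 and matplotlib 3.10.9. The fits and the placing of the run were tried on simulated data, with no outcome reported here, so no result rests on that trial.

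The region, the lists and the other members were chosen with earlier results of these data known. Genes are named as UBXN7 and 5 neighbours on each side, 2 on each side of each edge, the 4 highest and 4 lowest of each arm among genes averaging 1 CPM or more whose genotypes did not overlap, MUL1, and members of 7 lists compiled by hand, as the most counted or where a small count needs them. Some list members, stretch genes below 0 and the printed bins and promoters were chosen after their values were seen. Differences between replicate libraries had a variance 2.75 to 9.51 times that of sampling noise (chi-square per degree of freedom). Pairs with library 3 had 7.82 to 9.51, while libraries 1 and 2 had 2.75 in WT and 4.77 in MUL1(-/-). Replicate libraries were counted as separate samples. Some values of single list members are not reported here.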

Additional observations from a re-analysis of the deposited data

How the results depend on the processing

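The results were recomputed under 25 alternatives. The stretch median stayed between 0.47 and 0.53 and above 0 in all 22 values, and the median of the other autosomes moved by at most 0.070, with library totals and no factor. The stretch began at KCNAB1 in 18 of 21 settings. It began at SLC33A1 (155821024) with the most counted bin of each gene, at SSR3 when genes averaged at least 5 CPM, and at IL1RAP (190514051, 53 genes) with a running median over 21 genes, which left 0.1578 for the long arm outside it. Bins that no other exon overlaps gave 0.5212 for the stretch, and exon bins gave -0.00347 for the short arm, 0.2553 for the long arm and 0.5324 for the stretch. Without a filter on low counts 5 stretch genes were called lower. With an absolute log2 fold change above 1 as well, the genes called higher and lower were 19 and 11 on the short arm and 16 and 6 on the rest of the long arm, and 36 in the stretch were higher. Windows of 10 genes gave a lowest stretch median of 0.2261 and a highest outside median of 0.2763, so that single small windows of the 2 regions overlapped, and windows of 40 genes gave an outside highest of 0.05206. Leaving out 1 library at a time gave 0.4709 to 0.4993 for the stretch median and 0.007504 to 0.0269 for the short arm median, with 57 to 89 short arm genes called higher, 53 to 95 lower and 3 to 6 stretch genes lower. The short arm counts fell most without WT library 1 (58 higher, 53 lower) or WT library 2 (57 higher), and without MUL1(-/-) library 1 (57 lower), and the stretch count of 6 was without WT library 3. FAM157A had 0.1014 in place of -0.39 with the most counted bin. The cause of these changes was not tested. Of 953 values of 57 named genes, 916 moved by less than the spread between libraries, 36 by more and 1 reversed.

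Same-numbered libraries are linked in the labels only by a number, and whether they shared a batch is not known. The correlations of their deviations were -0.079, 0.162 and 0.104, with a mean of 0.062, against a mean of -0.028 for libraries of different number. Under a replicate block, edgeR called 325 chromosome 3 genes higher and 136 lower. The fit without it called 333 and 136, and the 2 fits shared 319 and 130. The blocked stretch median was 0.4763. The arm shares and medians rest on deep libraries, while genes under 0.3 CPM, such as NRROS and TP63, rest on far fewer counts.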
